A study of Penicillium oxalicum with 114 samples.

Results

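POX01166, a cellulase gene, and POX01167, the regulator gene that follows it in the numbering, are 2 of the 9863 features in the deposited gene tables of the filamentous fungus Penicillium oxalicum. They were chosen by identifier, and both were listed in all 3 kinds of table described below. Cellulases are secreted enzymes that cut the glucose chains of cellulose, and fungi make them in bulk when cellulose is the carbon source and hold them back when free glucose is present. ClrB is a transcription factor known in related fungi, such as Aspergillus, to be needed for the transcription of many cellulase genes. The stated purpose of the series was to find genes whose transcription is tied to that of cellulase and xylanase genes.

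RNA-seq of mycelium gave libraries in 33 groups. The wild type HP7-1 was grown from spores for 72 h on glucose (3 libraries), on wheat bran, on wheat bran plus rice straw and on wheat bran plus bagasse (1 library each). Ku70, the control strain of the series, lacks POXKu70, a gene of the pathway that joins broken DNA ends. Ku70 was moved to the inducing carbon source, which is Avicel per the growth protocol, for 24 h (24 libraries), and, from glucose, to Avicel alone (AV, a microcrystalline cellulose) for 12 or 36 h and to wheat bran plus Avicel (WA) for 12, 24 or 36 h (3 libraries each). Ku70 library 30 carries the label 13 h and was placed in the WA 12 h group. Ku70 was also cultured for 24 h on Avicel to which arachidonic acid oil, or linolenic or oleic acid, had been added, and so was dPOX07277, which lacks POX07277 (3 libraries in each of the 6 groups). The strain dClrB lacks POXClrB and was grown on the inducing carbon source, for 24 h after transfer and for 72 h without transfer, on AV for 12, 24 and 36 h and on WA for the same times (3 libraries each). The strain dPOX01167 lacks POX01167 and was grown on the inducing carbon source without transfer for 72 h, on AV for 12 and 36 h and on WA for 12, 24 and 36 h (3 each). OES1167 carries extra POX01167 behind the gene's own promoter, and dPOX02968 and dPOX04420 each lack the gene they are named after; all 3 were grown on the inducing carbon source for 24 h (3 libraries each). Whether the mutants also lack POXKu70, and how many clones stand behind a strain, is not given in the labels. Nothing in the labels says that libraries of a group came from separate cultures, so each p-value reflects only the spread of these samples, which may be technical.

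Totals ran from 365937 to 4242956 counts in 30 lower-depth libraries, from 13277742 to 14731797 in 36 deeper libraries and from 5368155 to 8267079 in the 48 libraries of the AV and WA time course. The libraries of the time course fell into 3 quantification sets, named F, S and T after the letters in the titles, whose tables gave genes different lengths. In the strains made for them, POX02968 stood at 0.211 to 0.359 CPM (a gene's counts scaled to a common library total) and POX04420 and POX07277 were at 0, while the identifier of POXClrB is not given in the sources used here and that label was not checked. Among the 24 Ku70 induced libraries, 8, 9 and 10 stood apart. They held POX01166 at 6.60, 3.31 and 4.88 CPM, against 2630 to 19470 CPM in the other 21, and in them 7 of the 8 other cellulase genes lay below all of the other 21 libraries. POX01167 was at 217, 201 and 132 CPM in libraries 8, 9 and 10, inside the range of 118 to 342 CPM of the others. Of 8523 genes, 12.9% were lower and 12.2% higher in those 3 libraries with no overlap. Results that rest on this group are therefore given with and without them.

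Over the 26 groups outside the POX01167 strains, the group means of POX01166 spanned 12.3 on the log2 scale of CPM + 1 and those of POX01167 spanned 6.62, or 4.74 with the full-length estimate described below. POX01166 had its highest group mean in Ku70 with arachidonic acid oil, at 11168 ± 4554 CPM (SD, n = 3), but the induced Ku70 group without libraries 8, 9 and 10 lay slightly above it, at 11198 ± 6173 CPM (n = 21). Its lowest group mean was that of dClrB on WA at 12 h, at 1.22 ± 0.230 CPM (n = 3). In the order of its 33 group means, 24 of the 32 neighbouring groups overlapped and 8 did not. The groups of Ku70, dPOX02968, dPOX04420, OES1167 and dPOX07277 on Avicel, with the AV 12 h libraries labelled dPOX01167, held the 13 highest means, from 2624 CPM upward. Below them lay the 3 wheat-bran cultures of HP7-1, at 1316 to 1891 CPM, and dPOX01167 without transfer, at 304 ± 234 CPM (n = 3). HP7-1 on glucose, every WA group, every dClrB group and the AV 36 h libraries labelled dPOX01167 lay at 73.7 CPM or less. As deposited, POX01167 had its highest group mean in dClrB on AV at 36 h, at 1214 ± 864 CPM (n = 3), which the full-length estimate puts at 249 ± 34.6 CPM. With that estimate OES1167, at 412 ± 17.3 CPM (n = 3), had the highest. In the order of its 33 group means as deposited, 24 of the 32 neighbouring groups overlapped.

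**Figure D1:**
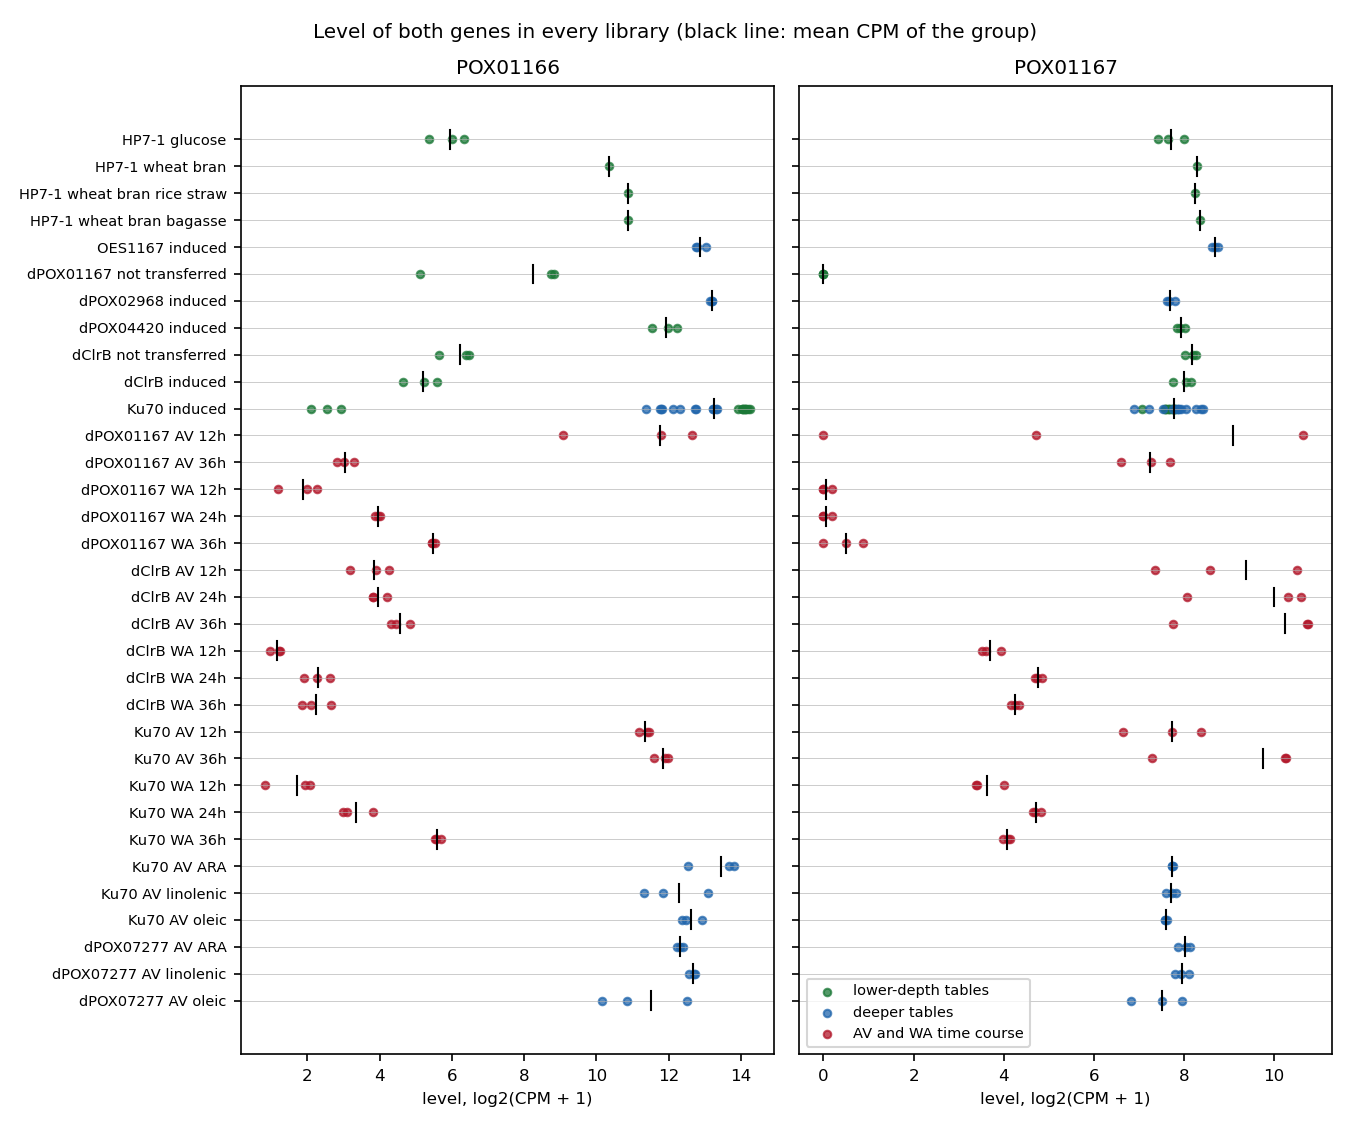
Level of POX01166 (left) and POX01167 (right) in every library, as log2(CPM + 1); points are libraries coloured by kind of table, and a black line marks the group mean. POX01166 spreads over the whole axis, while outside the time course and the POX01167 strains the group means of POX01167 lie between 180.7 and 326.7 CPM.

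Outside the time course and the POX01167 strains, 15 groups remained, and across them the group means of POX01167 ran from 180.7 to 326.7 CPM, a range of 1.81-fold. The group means of POX01166 in the same 15 groups ran from 35.9 to 11168 CPM, a range of 311-fold. Per base of gene length, POX01166 stood above POX01167 by a log2 ratio of 6.44 ± 0.70 (SD, n = 3) in Ku70 with arachidonic acid oil. It stood below POX01167 by a log2 ratio of -0.98 ± 0.24 (n = 3) in HP7-1 on glucose and of -2.04 ± 0.35 (n = 3) in induced dClrB. Which of these genes had the higher level per base thus differed between cultures.

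HP7-1, the wild type, gives the contrast of glucose with plant material. POX01166 was at 79.2, 62.8 and 39.9 CPM in the 3 glucose libraries (29, 25 and 36 counts). It was at 1316 CPM on wheat bran, 1891 on wheat bran plus rice straw and 1865 on wheat bran plus bagasse. The groups did not overlap, and POX01166 rose 22.1-fold (log2 4.46, SE 0.41, adjusted p = 5.68e-05 by edgeR's quasi-likelihood test; 22% of 8530 genes tested were called in this comparison, at an adjusted p under 0.05 and a change of at least 1 on the log2 scale). Of the 8 other cellulase genes on the list, 7 rose and 1 was not called, with a median of 5.41 against 0.13 over all genes. POX01167 was at 254, 198 and 169 CPM on glucose and at 313, 300.5 and 327 CPM on the bran media, in the same order as above. All 3 bran values were above all 3 glucose values, but the fitted change of 0.22 (SE 0.25, adjusted p = 0.541) was not called. The 3 bran media are 1 library each, so the spread includes that between media.

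On the time course POX01167 cannot be read from its counts alone, because 2 of the 3 quantification sets gave it a short length on AV. FPKM divides counts by length, so counts and FPKM together show the length that was used. In set T that length was close to the 2202 bases deposited for POX01167, at 2006 to 2031 bases in the AV libraries with counts. In sets F and S on AV it fell to between 441 and 737 bases in the libraries of dClrB and Ku70 and in the libraries labelled dPOX01167 at 12 h. Ku70 at 36 h on AV shows what this does: POX01167 stood at 1214, 1236 and 157 CPM in sets F, S and T. If only 2 lengths were present, the full-length product made up 188, 204 and 157 CPM in these 3 libraries, and the sets then lay close together. This split is an estimate; its short length was read from the library with the lowest value among those with at least 100 counts, labelled dPOX01167 on AV at 12 h in set F, so the full-length value of that library is 0 by construction. In dClrB and Ku70 on AV in sets F and S, the short-length counts came to 16.6 to 23.05% of the counts of POX01169 (10 libraries). What the short product is was not tested.

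**Figure D2:**
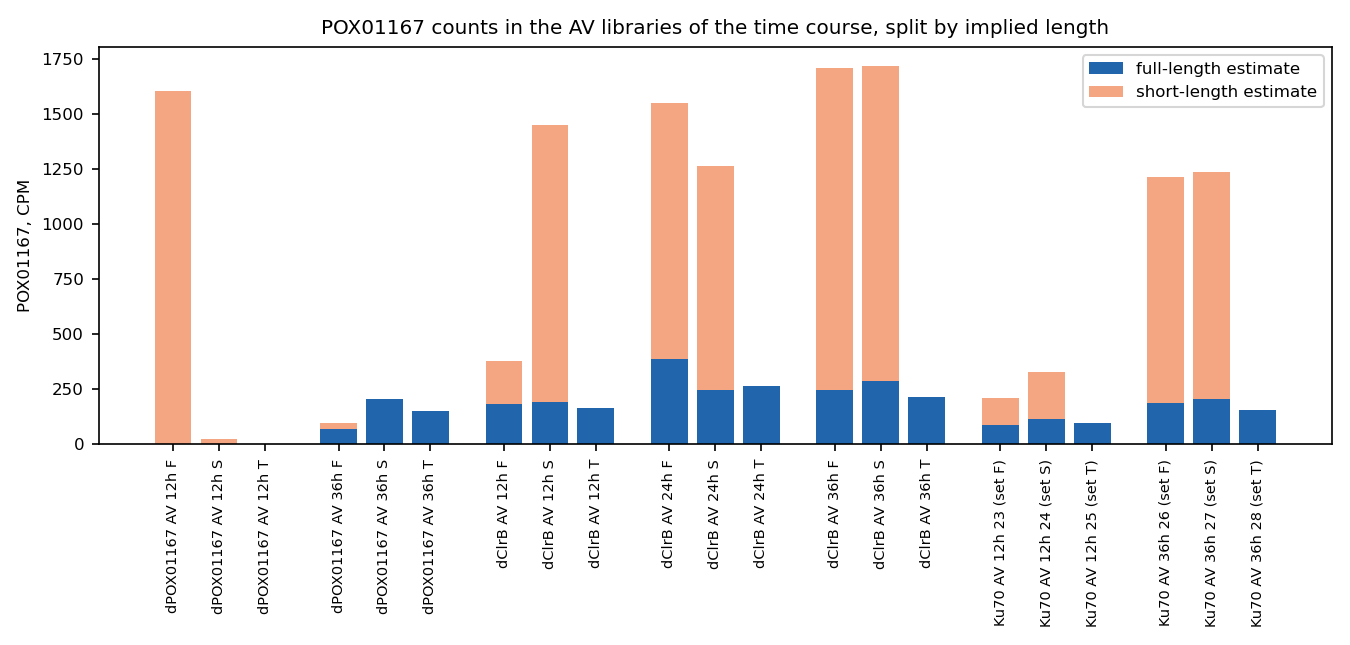
POX01167 in the 21 AV libraries of the time course, in CPM, as stacked bars of the full-length estimate and the short-length estimate. In sets F and S the short length makes up most of the tall bars, and the full-length part in dClrB and Ku70 lies between 86.3 and 389 CPM.

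The same split bears on whether the libraries labelled dPOX01167 lack the gene. Without transfer, POX01167 had 0 counts in all 3 dPOX01167 libraries, which allows up to 1.13 to 1.44 CPM, for counting error alone. On WA it was at 0.840 CPM or less in all 9. On AV at 12 h library F held it at 1603 CPM as deposited, S at 25.3 and T at 0, and the full-length estimate was 0 (by construction), 1.28 and 0 CPM. On AV at 36 h it was at 95.6, 207 and 153 CPM, with a full-length estimate of 67.2, 205 and 153 CPM. At 36 h the AV libraries with that label thus held reads of POX01167 at full length, which goes against their label, and the AV libraries are called by their label only. OES1167 held POX01167 at 428, 414 and 394 CPM, above the highest of the 24 Ku70 induced libraries, 342 CPM.

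Ku70 on AV and on WA gives the contrast in which both genes moved. At 12 h POX01166 was at 2338, 2806 and 2728 CPM on AV and at 2.81, 0.788 and 3.17 CPM on WA. At 36 h it was at 3112, 4052 and 3794 CPM on AV and at 51.1, 45.6 and 45.9 CPM on WA. The media did not overlap at either time. POX01166 was lower on WA by a log2 change of -10.11 (SE 0.71, adjusted p = 3.17e-13 by edgeR's quasi-likelihood test) at 12 h, when 28.2% of 8147 genes were called, and of -6.06 (SE 0.59, adjusted p = 7.06e-10) at 36 h, when 19.5% were. Wheat bran was part of the WA medium, and Avicel was in both media.

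POX01167 fell with it, by less. As deposited it was at 212, 329 and 98.7 CPM on AV at 12 h and at 15.04, 9.45 and 9.64 CPM on WA, and at 36 h it was at 14.8, 16.5 and 15.97 CPM on WA. The fitted change was -4.16 (SE 1.33, adjusted p = 0.0104) at 12 h and -5.57 (SE 1.42, adjusted p = 0.00239) at 36 h. With the full-length estimate in place of the counts, AV stood at 86.3, 116 and 98.7 CPM at 12 h and the changes were -3.08 (SE 0.54, adjusted p = 1.81e-05) and -3.36 (SE 0.54, adjusted p = 1.00e-05). Over the 12 alternatives the adjusted p ran from 1.81e-05 to 0.0447 at 12 h and from 1.00e-05 to 0.0154 at 36 h. The call held with both readings, but the size at 36 h was 10.3-fold with the full-length estimate and 47.7-fold without it.

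With time on WA, POX01166 rose and POX01167 was not called in the shared fit of the time course. POX01166 was at 13.0, 7.60 and 6.99 CPM at 24 h in Ku70. It rose by 1.92 on the log2 scale from 12 to 24 h (SE 0.51, adjusted p = 0.00418 by edgeR's quasi-likelihood test; 15.2% of genes were called) and by 4.54 from 12 to 36 h (SE 0.56, adjusted p = 5.82e-08; 23.9% were called). When only the groups compared were fitted, the rise to 24 h lost its call (adjusted p = 0.0605, in a range of 0.00149 to 0.0605 over 11 alternatives). POX01167 was at 24.9, 27.3 and 23.9 CPM at 24 h, above all 3 libraries of 12 h, and its changes of 1.05 (SE 1.19) and 0.61 (SE 1.19) were not called. The shared fit takes 1 spread of POX01167 over all 48 libraries, with the dPOX01167 groups and the AV sets among them. These SEs therefore do not measure the spread of POX01167 on WA alone. With only the groups compared in the fit, its rise to 24 h was called (1.04, SE 0.21, adjusted p = 0.0207, in a range of 0.0207 to 0.749 over 12 alternatives), so the calls of the genes for that step changed places. On AV, from 12 to 36 h, POX01166 changed by 0.50 (SE 0.47, adjusted p = 0.594) and POX01167 by 2.02 (SE 1.21, adjusted p = 0.290; 0.88, SE 0.50, at full length), and neither was called, where 11.3% of genes were.

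In dClrB on AV, POX01166 fell and POX01167 was not called in either direction. In dClrB on AV, POX01166 was at 8.01, 18.04 and 13.8 CPM at 12 h, at 13.0, 17.5 and 13.1 CPM at 24 h and at 27.7, 20.8 and 18.98 CPM at 36 h, all below every Ku70 library on AV. Against Ku70 it fell by 7.59 at 12 h (SE 0.63, adjusted p = 3.00e-10 by edgeR's quasi-likelihood test; 2.45% of 8147 genes were called, 200 of them, or 330 with the sets as a block) and by 7.30 at 36 h (SE 0.62, adjusted p = 2.26e-10; 7.25% were called). Of the 8 other cellulase genes, 6 fell and 2 were not called at each of these times, with a median of -5.37 at 12 h and -5.23 at 36 h, against 0.03 and -0.01 over all genes. POX01167 in dClrB on AV was at 185, 192 and 163 CPM at 12 h and at 245, 286 and 217 CPM at 36 h by the full-length estimate. Its change against Ku70 was 1.70 at 12 h (SE 1.19, adjusted p = 0.634; 0.85, SE 0.50, at full length) and 0.53 at 36 h (SE 1.17, adjusted p = 0.920; 0.50, SE 0.49, at full length). At both times the full-length values of dClrB were above all 3 of Ku70, and the difference was not called.

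On WA, where POX01166 was low in both strains, the change in dClrB was -0.88 at 12 h (SE 0.53, adjusted p = 0.917; 0.43% of genes were called, 35, or 70 with the block) and -1.23 at 24 h (SE 0.50, adjusted p = 0.362; 0.712% were called, 58, or 94 with the block), and neither was called. At 36 h POX01166 was at 5.27, 2.60 and 3.29 CPM in dClrB, below all 3 Ku70 libraries, and it fell by 3.84 (SE 0.54, adjusted p = 1.71e-05; 2.63% were called). The difference between the strain effects on WA and on AV was itself called for POX01166, at 6.71 (SE 0.77, adjusted p = 6.58e-07; 0.798% of genes) at 12 h and 3.46 (SE 0.70, adjusted p = 8.84e-04; 7.89%) at 36 h. A fall on WA as large as that on AV would have left at most 0.0969 counts of POX01166 in a dClrB library at 12 h and at most 2.35 at 36 h, below the limit of 3 counts, whereas 7 to 11 and 19 to 41 counts were found. POX01167 in dClrB on WA was at 10.4, 11.2 and 14.3 CPM at 12 h, at 24.8, 28.03 and 25.6 CPM at 24 h and at 19.2, 16.8 and 18.1 CPM at 36 h. The changes against Ku70 were 0.06, 0.03 and 0.03 on the log2 scale (SE 1.17 to 1.18), and none was called. At full length the SE was 0.50 at each time. Both SEs come from the spread over all 48 libraries of the time course and not from WA alone.

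Induced dClrB held POX01166 at 36.3, 47.1 and 24.2 CPM. The 24 Ku70 induced libraries had a median of 9608 CPM (3.31 to 19470), so dClrB lay below 21 of them and above libraries 8, 9 and 10. POX01166 fell, with a log2 change of -8.19 (SE 2.09, adjusted p = 0.00640 by edgeR's quasi-likelihood test; 12% of 8549 genes were called), and of -8.38 without libraries 8, 9 and 10 (SE 1.02, adjusted p = 8.90e-07). Without library F of dClrB the call was lost (-8.37, SE 2.65, adjusted p = 0.0615); over 8 alternatives the adjusted p ran from 2.73e-11 to 0.0615. POX01167 was at 284, 263 and 215 CPM in induced dClrB, inside the range of Ku70, with a change of 0.20 (SE 0.19, adjusted p = 0.469) that was not called, and of 0.18 (SE 0.18) without libraries 8, 9 and 10.

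Against Ku70, extra copies or loss of POX01167 itself gave no called change of POX01166 in the libraries that bore out their label. For loss the full groups were those on WA, where Ku70 itself held POX01166 at means of 2.26, 9.21 and 47.5 CPM (12, 24 and 36 h). On AV the means of Ku70 were 2624 CPM (12 h) and 3653 CPM (36 h). Of the AV 12 h libraries labelled dPOX01167, T had 0 counts of POX01167 and held more POX01166 than any Ku70 library there. Library S, with a full-length estimate of 1.28 CPM, held less than any of them. A fall from the WA levels of 12 and 24 h had little room to be called. OES1167 held POX01166 at 8458, 6983 and 7128 CPM, inside the range of Ku70, with a change of -0.42 (SE 1.24, adjusted p = 0.895; 0.211% of 8515 genes were called). Without libraries 8, 9 and 10 it was -0.58 (SE 0.60), and against the 12 Ku70 libraries of the same kind of table the sign turned (0.29, SE 0.45). On WA, dPOX01167 held POX01166 at 3.82, 1.27 and 2.96 CPM at 12 h, at 13.6, 15.3 and 14.5 CPM at 24 h and at 45.6, 42.4 and 43.001 CPM at 36 h. Its changes against Ku70 were 0.24 (SE 0.51; 0.184% of genes called), 0.65 (SE 0.48; 0.0614%) and -0.25 (SE 0.48; 0.319%), each with an adjusted p of 1. With the sets as a block the genes called were 37, 10 and 44 in place of 15, 5 and 26. The gene after it in the numbering, POX01168, rose in dPOX01167 on WA at all 3 times, by 3.47 (SE 0.44, adjusted p = 7.12e-06), 2.65 (SE 0.41, adjusted p = 5.70e-04) and 3.10 (SE 0.42, adjusted p = 4.47e-05). In Ku70 on WA the mean of POX01168 was low, at 2.05 CPM at 12 h and 5.22 CPM at 36 h.

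Libraries with the dPOX01167 label on AV differed among themselves and between the times. At 12 h they held POX01166 at 6375, 537 and 3509 CPM, around the 2338 to 2806 CPM of Ku70, with a change of 0.25 (SE 0.47, adjusted p = 0.782; 16.8% of genes were called). Without library F the sign turned (-0.67). At 36 h, with POX01167 present, they held POX01166 at 8.80, 6.04 and 7.04 CPM, below every Ku70 library on AV, a log2 change of -9.10 (SE 0.67, adjusted p = 1.27e-12; 24.6% of genes were called). Of the 8 other cellulase genes, 7 fell and 1 was not called at 36 h, with a median of -5.76 against -0.06 over all genes. Since these 3 libraries held reads of POX01167, their values are not values of a strain without it.

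Without transfer, dPOX01167 held POX01166 at 429, 33.6 and 449 CPM and dClrB at 88.7, 49.0 and 83.5 CPM, so the groups overlapped through library S. The difference of 1.80 (SE 0.81, adjusted p = 0.112 by edgeR's quasi-likelihood test; 35.9% of 8474 genes were called) was not called. Without library S of dPOX01167 it was 2.31 (SE 0.23, adjusted p = 6.60e-06), and DESeq2 called it on all libraries (1.78, adjusted p = 0.0461), in a range of 6.60e-06 to 0.275 over 10 alternatives. POX01167 stood at 261, 308 and 295 CPM in dClrB grown this way.

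The other strains and the added lipids left both genes without a call. dPOX02968 held POX01166 at 9509, 9458 and 9106 CPM (-0.11, SE 1.202, adjusted p = 0.966; 1.51% of genes called), and POX01167 at 223, 201 and 196 CPM (-0.07, SE 0.18). Without libraries 8, 9 and 10 the changes were -0.30 (SE 0.59) and -0.09 (SE 0.17), and against Ku70 libraries of the same kind of table the sign for POX01166 turned (0.54, SE 0.45) and 458 genes were called in place of 129. dPOX04420 held POX01166 at 4794, 2955 and 4048 CPM (-1.51, SE 1.36, adjusted p = 0.634; 1.62% called), below all Ku70 induced libraries of the lower-depth tables other than 8, 9 and 10, and POX01167 at 239, 229 and 259 CPM (0.01, SE 0.18). The SE of the POX01166 changes shrank without libraries 8, 9 and 10, to 0.66 for dPOX04420 (-1.70, adjusted p = 0.131, in a range of 0.131 to 0.837 over 8 alternatives), and the call did not change. POX01167 in dPOX04420 was then -0.0193 (SE 0.16).

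In Ku70 with lipids on Avicel, POX01166 varied more within groups than POX01167. Ku70 with arachidonic acid oil held POX01166 at 5953, 13189 and 14361 CPM and POX01167 at 212, 211 and 214 CPM. Ku70 with linolenic acid held POX01166 at 3697, 2538 and 8777 CPM, and POX01167 at 224, 211 and 193 CPM. Ku70 with oleic acid held them at 7846, 5697 and 5332 CPM and at 191, 189 and 196 CPM. A spread of 2.41-fold in POX01166 thus went with one of 1.01-fold in POX01167 in the first of these groups. Against the induced Ku70 libraries the changes of POX01166 were 0.16 (SE 1.11), -0.97 (SE 1.23) and -0.62 (SE 1.19), in comparisons that called 0.576%, 3.89% and 5.39% of 8514 genes, and none was called. Those of POX01167 lay between -0.09 and 0.01, each with an SE of 0.17. Without libraries 8, 9 and 10 the changes of POX01166 were -0.0267 (SE 0.57), -1.18 (SE 0.63) and -0.80 (SE 0.61) and those of POX01167 -0.0281, -0.06 and -0.11 (SE 0.15 each), and none was called.

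dPOX07277 held POX01166 at 4832, 5074 and 5429 CPM with arachidonic acid oil, below all 3 Ku70 libraries, but the change of -1.11 (SE 0.50, adjusted p = 0.107; 14.4% of 8484 genes called) did not pass. With linolenic acid it was at 6807, 6731 and 6092 CPM (0.39, SE 0.49, adjusted p = 0.598; 14.8% called). With oleic acid it was at 1146, 5822 and 1848 CPM (-0.98, SE 0.49, adjusted p = 0.0945; 32.9% called), and without library S it fell by 1.92 and was called (adjusted p = 0.00187, in a range of 0.00187 to 0.267 over 9 alternatives). POX01167 changed by 0.29, 0.25 and 0.08 (SE 0.15 each) with the 3 lipids, and none was called. With oleic acid it was at 113, 247 and 182 CPM, a mean of 181 against 192 CPM in Ku70, so the means and the TMM-scaled change differ in sign. The library with the most POX01166 in that group also had the most POX01167.

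**Figure D3:**
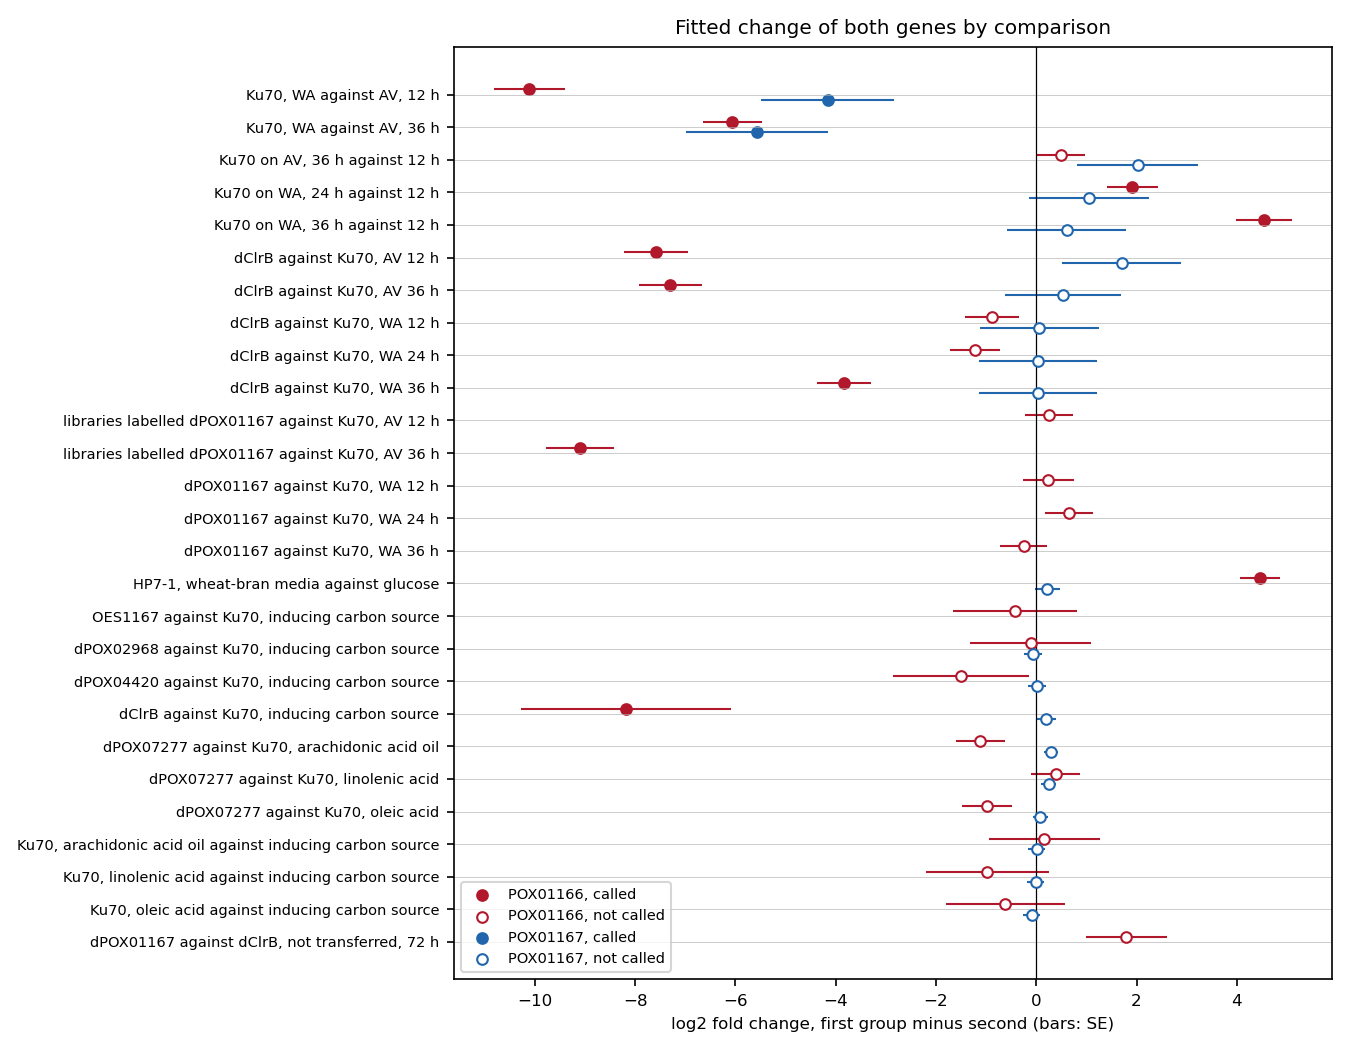
Fitted log2 change of POX01166 (red) and POX01167 (blue) in each comparison, first group minus second, with bars of 1 SE; filled points were called. POX01167 is shown only where it was tested. POX01166 was called in 10 of 27 comparisons and POX01167 in 2 of 20, both of them WA against AV in Ku70.

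In the 20 comparisons in which both genes were tested, POX01166 was called in 9 and POX01167 in 2, and those 2 were among the 9. Many of these comparisons share control libraries, so they are not independent of each other. The SEs of the genes differed, so the tally does not set them side by side at equal precision. For dClrB against Ku70 on AV at 12 h the SE was 0.63 for POX01166 and 1.19 for POX01167 as deposited. With the full-length estimate it was 0.50 for POX01167, and no call of POX01167 in the time course changed. With only the groups compared in the fit, the rise of POX01167 from 12 to 24 h on WA in Ku70 was called.

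Over the 26 group means outside the POX01167 strains, log2(CPM + 1) of the 2 genes had a Pearson r of 0.49 and a Spearman rho of 0.21, and with the full-length estimate in the time course r was 0.66 and rho 0.39. These are descriptions: the groups share strains, media, depth and quantification. Both genes were low in the 6 WA groups. Across the 15 groups outside the time course r was -0.29 (rho -0.41). Over the 9 groups of Ku70 it was 0.90 (rho 0.62) as deposited and 0.97 (rho 0.95) at full length. Within the 8 groups of the lower-depth tables it was -0.0019, within the 8 deeper groups it was 0.24 and within the 11 of the time course 0.53, or 0.52 at full length, the Ku70 induced libraries being split by kind of table. Within the time course, with the full-length estimate, r was 0.94 over the 5 Ku70 groups and 0.96 over the 6 dClrB groups, each with AV and WA together. On AV alone, over 5 groups of both strains, it was -0.71, and on WA alone, over 6 groups, it was 0.26. In the 5 AV groups POX01166 spanned 8.0 on the log2 scale and POX01167 1.58.

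**Figure D4:**
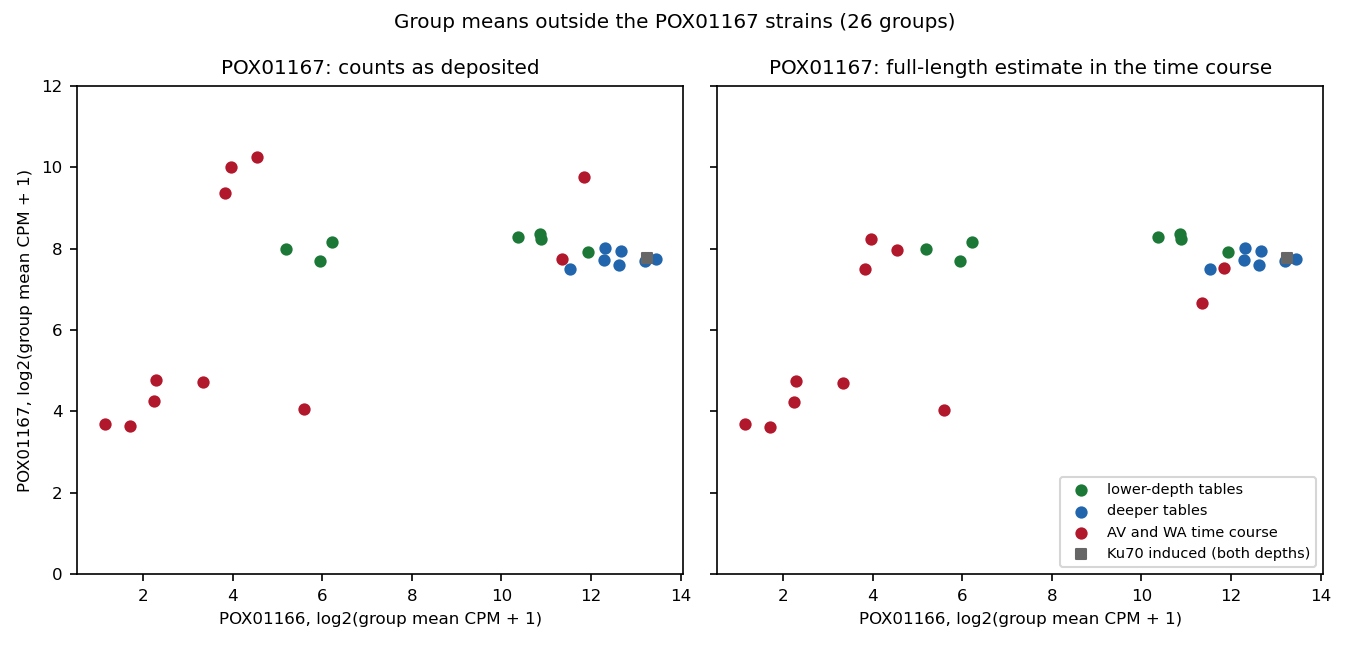
Group means of POX01166 (x) and POX01167 (y), as log2(CPM + 1), for the 26 groups outside the POX01167 strains, with POX01167 as deposited (left) and at its full-length estimate in the time course (right). The 6 WA groups lie low on both axes, with POX01167 between 11.4 and 26.2 CPM as deposited.

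Over the 26 groups many genes were at least as close to POX01166. Of 8608 genes at 1 CPM or more on average in these groups, POX01167 ranked 1669 by its r with POX01166, or 629 at full length, where the median gene had an r of 0.11. Among 7694 pairs of genes with consecutive numbers, 23.1% had an r at least as high as this pair, or 12.6% at full length, and the median pair had 0.14.

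POX01166 was most like other cellulase genes. The 5 genes with the highest r with it were POX04786 (0.99), POX05587 (0.98), POX05571 (0.98), POX08897 (0.96) and POX05570 (0.96), and 4 of these 5 were on the cellulase list. Within single kinds of table the lowest of their r values was 0.70. POX08897 was not on any list; its group means ran from 0 to 1014 CPM. Of the other listed cellulase genes, POX03641 had an r of 0.88, POX02740 0.63, POX07535 0.47 and POX06835 0.39. The xylanase genes POX08484 (0.91), POX06783 (0.80) and POX00063 (0.79) were also close, and POX08990 was less so (0.34).

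POX01167 was most like the genes that follow it in the numbering. The 5 genes with the highest r with its counts as deposited were POX01172 (0.96), POX01183 (0.96), POX01168 (0.95), POX03432 (0.93) and POX01179 (0.92). At full length the highest 10 were all among POX01168 to POX01179, led by POX01168 (0.98) and POX01174 (0.98). Within the time course the 5 genes closest to the deposited counts had an r of 0.98 to 1.00 with those counts, which on AV include the short-length counts. Within the lower-depth kind it ran from -0.47 (POX01183) to 0.23 (POX03432), and within the deeper kind it was 0.86 for POX03432, 0.64 for POX01168, 0.48 for POX01183, 0.09 for POX01172 and -0.0026 for POX01179. On the other side, POX01165 had an r of 0.29 with POX01166, and POX01168 had one of 0.64.

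The 18 numbers from POX01168 to POX01185, a run whose ends were chosen after these values were seen, had an r of 0.88 to 0.98 with full-length POX01167, and 17 of them reached 0.9, as did 37 of the 8608 genes in all (0.43%). In Ku70 all 18 were lower on WA, at 12 h (median -9.03) and at 36 h (median -10.22), a direction that their choice by r over these same groups fixes. The largest of them in Ku70 on AV at 36 h were POX01177, at 6803 CPM, and POX01179, at 6655 CPM, against 0.0438 and 0.936 CPM on WA at 12 h. The groups behind r also include those of dClrB and Ku70, between which POX01167 was not called. The choice of the run thus also favours a lack of fall in dClrB, and the dClrB values are a description. In dClrB against Ku70 on AV at 36 h none of the 18 was called in either direction (median 0.54), where 7.25% of all genes were and POX01166 fell. At 12 h on AV 2 of the 18 were higher and 16 were not called (0.73 to 2.90, median 2.09), where 2.45% of all genes were called. In induced dClrB 1 was lower and 17 were not called (median -0.43), where 12% were called. On WA none of the 18 was called in dClrB at 12, 24 or 36 h, where 0.43%, 0.712% and 2.63% of all genes were. In dPOX01167 against dClrB without transfer, all 18 were lower (median -7.68) where 35.9% of all genes were called, with POX01169 at 36.6 ± 24.6 against 5778 ± 2180 CPM (n = 3 each). In the AV 36 h libraries labelled dPOX01167, which held full-length POX01167, all 18 were lower than in Ku70 (median -5.79). There 24.6% of all genes were called. In those of 12 h, with a full-length estimate of 1.28 CPM or less, 9 were higher, 1 lower and 8 not called (median 2.36). There 16.8% were called. These comparisons differ in culture, time or control strain, and what lowered or raised the run in them was not tested. In dPOX01167 against Ku70 on WA, 1 of the 18 (POX01168) was higher at each time and 17 were not called, where 0.184%, 0.0614% and 0.319% of all genes were. Ku70 on WA held the 18 at 0 (POX01178) to 9.64 CPM (POX01170) at 12 h. At 36 h it held them at 0 (POX01182) to 13.05 CPM (POX01184). A fall of most of them on WA could hardly have been called. In OES1167 against Ku70 none of the 18 was called, where 0.211% of all genes were. POX01166, on the other side of POX01167, stood at 304 ± 234 against 73.7 ± 21.6 CPM in dPOX01167 against dClrB without transfer, with no call.

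Within Ku70 on the inducing carbon source no relation of the 2 genes passed the test. The 24 Ku70 induced libraries fell into separate clusters, the 9 lower-depth libraries with POX01166 at 15463 to 19470 CPM, libraries 8, 9 and 10, and the 12 deeper libraries with 2630 to 10398 CPM, so r is given within clusters. Over the 12 deeper libraries Pearson's r was 0.18 (permutation p = 0.565, adjusted 0.807) and Spearman's rho -0.13 (permutation p = 0.683, adjusted 0.813). Without the 2 libraries farthest from the median of POX01166, 16 and 19, r was -0.17. Over the 9 lower-depth libraries without 8, 9 and 10, r was 0.29 (permutation p = 0.453, adjusted 0.754) and rho 0.32 (permutation p = 0.411, adjusted 0.754), and without 1S and 1T r was 0.33. All tests were two-sided, with adjustment over the 10 relations computed. In the deeper libraries, 20 and 21 held POX01166 at only 3461 and 3541 CPM with POX01167 at 342 and 331 CPM, the highest values of POX01167 in the group, while 16 held the lowest of both for these tables, 2630 and 118 CPM. Libraries 20 and 21 were the pair of the series closest to counting noise, with a chi-square of 1.92 per degree of freedom. Among the deeper libraries, 11, 12 and 13 were at 13.2 to 23.6 from each other. From the other deeper libraries they were at 283 (13 and 19) to 632 (11 and 16). The permutation treats libraries as exchangeable, so its p-values do not take account of such subgroups.

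**Figure D5:**
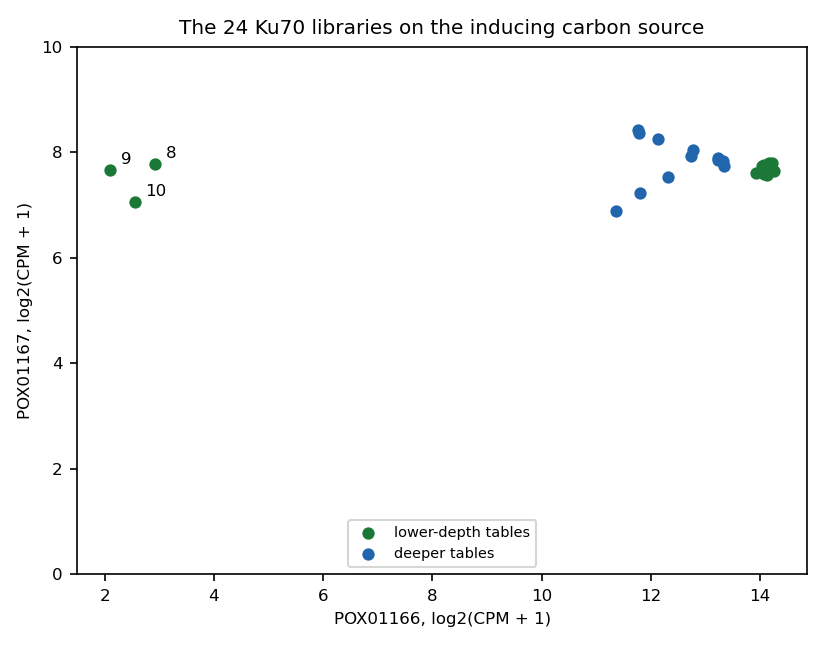
POX01166 (x) and POX01167 (y) in the 24 Ku70 induced libraries, as log2(CPM + 1), coloured by kind of table. Libraries 8, 9 and 10 lie near 3 to 7 CPM of POX01166 at the same height of POX01167 as the rest.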

How the data were processed

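Expected counts and FPKM per gene were read from the tables deposited by the authors, 1 per library, with TPM and gene lengths in 4 of them that were not used for tests. The submitters' processing notes list RSEM 1.2.12, DESeq2, Bowtie2 2.1.0 and BWA 0.7.10-r789; what each was used for, and the build and annotation, are not given in the sources used here. Identifiers matched none of the 9964 genes of the reference table at hand, so no names, positions or sequences are given.

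Counts were rounded (at most 0.000566% of a library), and genes averaging 1 CPM or more were fitted with edgeR 4.0.16 (TMM, quasi-likelihood F test, Benjamini-Hochberg adjustment over all genes tested; R 4.3.3). The 48 time-course libraries shared 1 fit. A gene was called at an adjusted p under 0.05 and an absolute log2 change of at least 1. DESeq2 1.42.0 was an alternative. CPM are counts scaled to a common library total; 29 features with other identifiers stayed in the totals (at most 0.0670% of counts). Group relations used log2(group mean CPM + 1), and permutation tests drew 100000 resamples. Scripts were tested on simulated data.

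The length used for POX01167 was taken from counts and FPKM. The library-wide shift came from genes within 300 bases of their deposited length, a limit chosen after a first version gave unstable values. Same-set libraries of the time course deviated together (r of 0.56 to 0.94 in every pair), so sets paired them; letters of the cultures without transfer did not (0.01 to 0.04).

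The genes and lists were chosen with earlier results of these data known. Named besides them were the 5 genes most like each, by Pearson r over the 26 groups. All replicate pairs differed by more than counting noise (363 pairs). With 3 libraries a group, small changes are not detectable, and intervals of depth cover counting error only.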

Additional observations from a re-analysis of the deposited data

Results flagged for a closer look

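The change of POX01166 between dClrB and Ku70 differed between media, by the test of the difference itself in edgeR. It was 6.71 (SE 0.77) higher on the log2 scale on WA than on AV at 12 h, and 3.46 (SE 0.70) higher at 36 h. On WA at 12 h POX01166 was at 2.26 ± 1.28 CPM in Ku70 and at 1.22 ± 0.230 CPM in dClrB (n = 3 each), which is 7 to 11 counts a library in dClrB, so values there are near the limit of 3 counts. The same difference for POX01167 was -1.64 (SE 1.67) at 12 h and -0.50 (SE 1.66) at 36 h, and neither was called.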

How the results depend on the processing

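Across the alternatives, POX01166 held its direction and its call in 288 cases, gained a call in 3, lost one in 2 and changed sign without a call in 8. POX01167 held both in 221, gained a call in 1 and changed sign without a call in 18. The alternatives were other size factors, no filter on low counts, DESeq2, the groups of a comparison fitted alone, the sets as a block, other controls and leaving out single libraries. The causes of the changes listed here were not tested. With the groups fitted alone, from 12 to 24 h on WA in Ku70, POX01166 lost its call (1.91) and POX01167 gained one (1.04). DESeq2 called POX01166 in dPOX01167 against dClrB without transfer (1.78). Signs turned without a call against controls of the same kind of table for POX01166 in OES1167 (0.29), dPOX02968 (0.54) and Ku70 with oleic acid (0.0846), and for POX01167 in Ku70 with arachidonic acid oil (-0.0354). Without libraries 8, 9 and 10 they turned for POX01166 (-0.0267) and POX01167 (-0.0281) in Ku70 with arachidonic acid oil and for POX01167 in dPOX04420 (-0.0193). With no filter they turned for POX01167 in dPOX07277 with oleic acid (-0.0372) and in Ku70 with linolenic acid (0.00528).

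Same-set libraries were paired in the time course, and the replicate block by set changed no call of either gene, for example -7.57 for POX01166 in dClrB against Ku70 on AV at 12 h. By letter, in the cultures without transfer, the block gave 1.30 for POX01166 and no call, but there the letters did not pair the samples.

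The number of genes called moved more. In dClrB against Ku70 on AV at 12 h it was 200, and it was 303 with DESeq2, 42 with the groups alone and 330 with the block. On WA at 12 h it was 35, then 65, 3 and 70 in the same order, and at 24 h it was 58, then 107, 19 and 94. On WA at 36 h it was 214 and 136 with the groups alone. For the difference between the media at 12 h it was 65 and 42 with the groups alone. In the libraries labelled dPOX01167 at 12 h on AV it was 1371 and 112 with the groups alone. In dPOX01167 on WA it was 15 at 12 h, then 36 with DESeq2, 0 with the groups alone and 37 with the block. At 24 h it was 5, then 22, 0 and 10, and at 36 h 26, then 51, 4 and 44. Both counts of 0 came from edgeR, which had 389 (12 h) and 649 (24 h) genes at an unadjusted p under 0.05 there.

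Against the induced Ku70 libraries, the counts were 18 for OES1167, 129 for dPOX02968, 138 for dPOX04420, and 49, 331 and 459 for Ku70 with arachidonic acid oil, linolenic and oleic acid. With DESeq2 they were 129, 416, 315, 396, 736 and 744. Against controls of the same kind of table they were 84, 458, 457, 592, 825 and 899, and without libraries 8, 9 and 10 they were 84, 221, 275, 276, 689 and 738.

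When single libraries were left out, the count ran from 123 to 258 for dClrB on AV at 12 h. On WA it ran from 17 to 43 at 12 h, from 26 to 45 at 24 h and from 110 to 235 at 36 h. It ran from 43 to 69 for the difference between media at 12 h, from 832 to 2078 for the libraries labelled dPOX01167 at 12 h on AV, and from 9 to 33 at 12 h and 10 to 19 at 36 h for dPOX01167 on WA. It ran from 1239 to 1845 for HP7-1, stayed at 1 for OES1167, and ran from 27 to 47 for dPOX02968, from 9 to 54 for dPOX04420 and from 442 to 1029 for induced dClrB. For Ku70 with arachidonic acid oil, linolenic and oleic acid it ran from 7 to 9, from 64 to 172 and from 66 to 96.

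Leaving out single libraries moved POX01166 from -0.67 to 0.80 in the libraries labelled dPOX01167 at 12 h on AV, from -0.15 to 0.57 in dPOX01167 on WA at 12 h, and from -8.37 to -7.94 in induced dClrB. It moved from -1.92 to -0.71 in dPOX07277 with oleic acid, from -0.0337 to 0.46 in Ku70 with arachidonic acid oil and from 1.42 to 2.31 in dPOX01167 against dClrB without transfer. POX01167 moved from -0.0943 to 0.24, -0.0359 to 0.12 and -0.0458 to 0.0652 in dClrB on WA at 12, 24 and 36 h, from -0.0585 to 0.0741 in dPOX04420 and from -0.0522 to 0.36 in induced dClrB. It moved from -0.24 to 0.16 in dPOX07277 with oleic acid, from -0.0033 to 0.0215 in Ku70 with arachidonic acid oil and from -0.0572 to 0.0313 with linolenic acid.

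The correlation of the 2 genes over groups was 0.49, and it was 0.32 on FPKM, 0.66 with the full-length estimate, -0.0019 within the lower-depth tables, 0.24 within the deeper ones, -0.29 without the time course and 0.90 over the Ku70 groups alone. Over the 24 Ku70 induced libraries, which form separate clusters, the pooled r was 0.24, and it was -0.0805 without libraries 8, 9 and 10 and -0.0310 without the 2 farthest from the median. The lowest-depth libraries limit the precision of low values: HP7-1 on glucose held 25 to 36 counts of POX01166.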
